A study of Mus musculus with 20 samples.

Results

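The lining of blood vessels, the endothelium, was compared between the brain and the kidney of mice at 24 months of age. The comparison used the 24-month runs of the brain and kidney tables, chosen by their organ and age labels, which were 7 of the 20 sequencing runs of the series. A pair of kidney runs came from 1 library and was summed, so that 3 brain and 3 kidney libraries remained of 18 in all, numbered 1 to 3 in each organ. All 6 libraries came from wild type C57BL/6 mice, and their labels name no transgene, treatment or sex. Heart endothelium and mice of 3 months made up the other libraries, of which the 6 of brain and kidney at 3 months enter the last comparison below. Per the labels, each organ was minced and digested with collagenase, cells bearing CD31 were enriched on magnetic beads, and a flow sorter then kept cells positive for CD31 and negative for GP38 and CD45. CD31 is the endothelial adhesion protein encoded by Pecam1, GP38 (Pdpn) is found on lymphatic endothelium and fibroblasts, and CD45 (Ptprc) on leukocytes. Whether replicate libraries came from different animals is not in the labels, so each p-value below measures the spread between libraries only.

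Vessels take on the needs of the organ they supply. Brain capillaries form the blood-brain barrier: their cells are joined by tight junctions, move few vesicles, and carry nutrients and drugs across the wall by dedicated transporters under the control of Wnt/beta-catenin signalling. Kidney endothelium includes the fenestrated cells of the glomerulus, where blood is filtered, the fenestrated capillaries around the tubules, which take back filtered water and solutes, and the vasa recta of the medulla, which work in salty tissue with little oxygen.

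Levels are given as CPM, read counts divided by library size after scaling with TMM factors (trimmed mean of M values), always in the order of libraries 1, 2 and 3 and with brain before kidney. Fold changes are on the log2 scale, brain over kidney, with a standard error (SE), so a negative value means a higher level in kidney. A gene is said to be higher in an organ only if it passed an adjusted p of 0.05 in the quasi-likelihood F test of edgeR, adjusted by Benjamini-Hochberg over all 15831 genes tested. Total counts ranged from 39155805 to 60492548 in brain and from 38192446 to 80960468 in kidney, where the summed library 1 was the deepest. Bounds given below cover counting error only.

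The defining endothelial genes were abundant in every library of both organs. Pecam1 was at 1616, 1409 and 1558 CPM in brain and 1701, 1765 and 1381 CPM in kidney (log2 fold change -0.08, SE 0.13, adjusted p = 0.748), and Cdh5, the adhesion gene of endothelial junctions, at 189.5, 187 and 195 CPM and 213, 213 and 155 CPM (log2 fold change -0.03, SE 0.15, adjusted p = 0.938). The libraries of the organs overlapped for both genes. The genes of the proteins the sort selected against were low. Ptprc was at 0, 2.06 and 2.48 CPM in brain and 1.01, 7.32 and 5.45 CPM in kidney, with overlapping libraries (log2 fold change -1.59, SE 1.47, adjusted p = 0.528). Pdpn had 0, 0 and 0.0357 CPM in brain and 1.07, 1.58 and 4.94 CPM in kidney, where all 3 libraries lay higher (adjusted p 0.011).

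RNA of other cell types was present, and it differed between the organs and between libraries of an organ. Kidney libraries held genes of the loop of Henle, distal tubule and collecting duct, whose 19 markers summed to 8684, 7626 and 13987 CPM in kidney and to 7.96, 39.0 and 26.0 CPM in brain. Library 3 of kidney held the most, 1.72 times the mean of the other kidney libraries. Slc34a1, the phosphate transporter that defines the proximal tubule, was at 226, 22.2 and 239 CPM in kidney and had no count in brain. Brain libraries held more RNA of mural cells (pericytes and smooth muscle), with a 15-gene sum of 1981, 1755 and 1555 CPM against 417, 298 and 454 CPM in kidney. They also held more of the platelet and red cell list of 11 genes, 1197, 644 and 556 CPM against 28.0, 45.6 and 39.9 CPM, highest in brain library 1. In bulk samples, a different number of cells of a type and a different amount of RNA per cell cannot be told apart. The part of these cell types in the results below was not tested, and their levels are given beside the gene groups they move with.

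**Figure D1:**
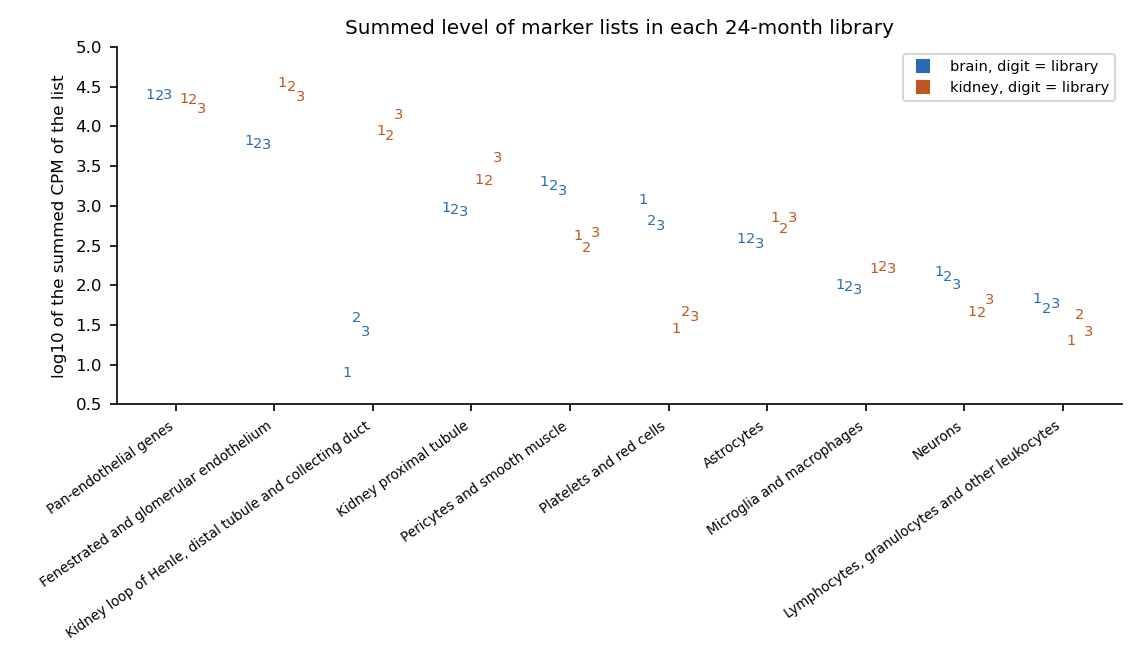
Summed level of 10 marker lists in each 24-month library, as log10 of the summed CPM on the vertical axis, with the digit giving the library number and the colour the organ. The pan-endothelial sums of the organs lie close together, from 16796 to 24949 CPM, while the sums for the loop of Henle to collecting duct lie far apart, from 7.96 to 39.0 CPM in brain and from 7626 to 13987 CPM in kidney.

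The organ of origin was visible in a large part of the transcriptome. In edgeR, 3543 of 15831 genes (22.4%) passed the threshold, of which 1444 (9.12%) were higher in brain and 2099 (13.3%) higher in kidney. These shares are the background for every list tally below. The libraries of the organs did not overlap for 6581 genes (41.6%), 2887 (18.2%) higher in brain and 3694 (23.3%) higher in kidney. Differences towards kidney were the larger ones. The median log2 fold change was 1.41 among genes higher in brain and -3.34 among genes higher in kidney, beside -0.04 over all genes tested, and 899 of the genes higher in kidney but 175 of those higher in brain differed over 32-fold. Of the genes higher in kidney 457 had no count in any brain library, and of those higher in brain 71 had none in kidney. Scaled by library totals alone, without TMM factors, the split was 1063 higher in brain and 2663 higher in kidney, and the median over all genes moved by -0.2. Among the 2099 genes higher in kidney, 983 (46.8%) were highest in kidney library 3, the one with the most tubule RNA, and 212 were over 2-fold higher there than the mean of the other kidney libraries.

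**Figure D2:**
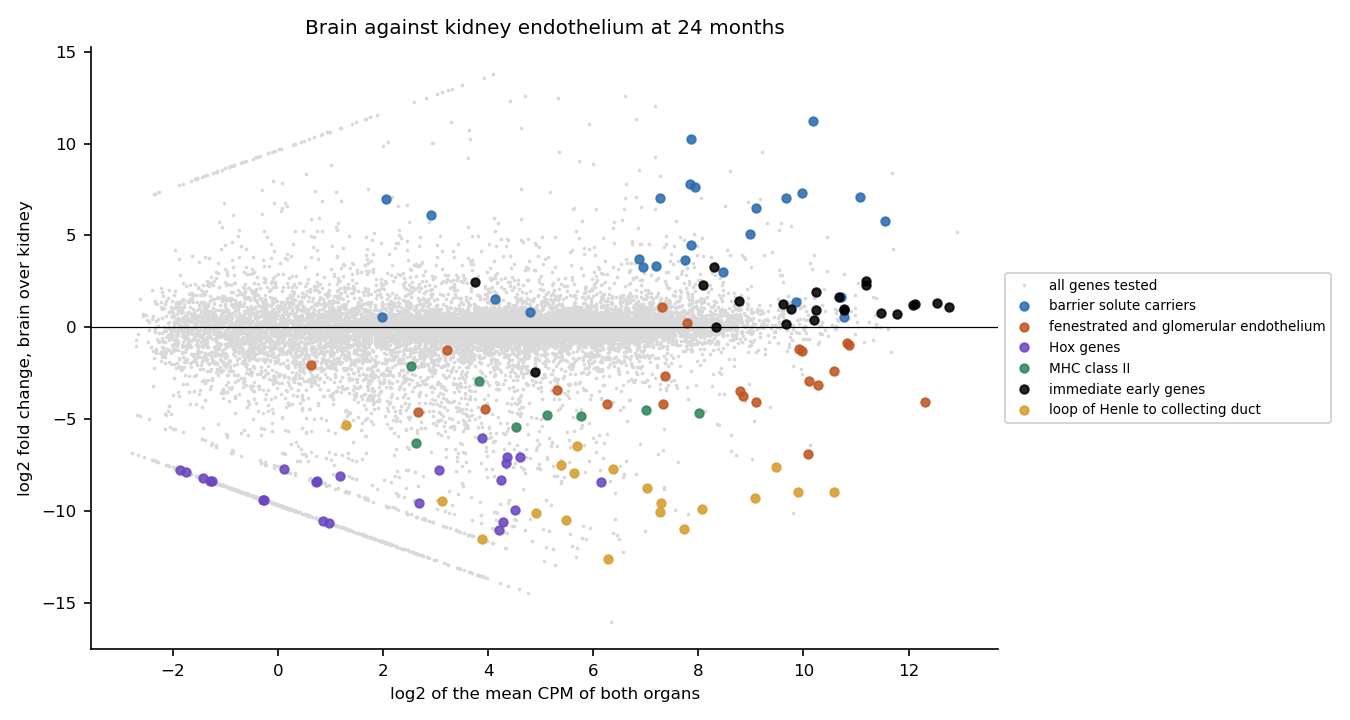
Difference between the organs for the 15831 genes tested, with the log2 of the mean CPM on the horizontal axis and the log2 fold change, brain over kidney, on the vertical axis. Coloured points are members of 6 gene lists; the straight lines of points at the edges are genes with 0 or few counts in 1 organ, whose fitted fold change depends on the prior count of the fit.

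Several of the most unequal genes were absent from the counts of an entire organ. Zic5, a zinc finger transcription factor gene of the developing brain, was at 38.1, 33.3 and 30.8 CPM in brain and was never counted in kidney. Set against 3 counts over the 3 libraries, the floor used for all such genes, that is at least 1970-fold higher in brain (adjusted p 0.000134). F5, the gene of coagulation factor V, was at 28.6, 35.7 and 26.1 CPM in brain and likewise absent from the kidney counts, at least 1742-fold higher (adjusted p 0.000184). Tub, a gene named for the tubby mouse, was at 12.04, 27.0 and 20.5 CPM in brain and uncounted in kidney, at least 1147-fold higher (adjusted p 0.000693). In each of these genes the brain libraries lay within a few-fold of each other. Mobp, a myelin gene of oligodendrocytes, was at 2.42, 43.4 and 10.7 CPM in brain with 0 counts in kidney, and library 2 stood above the rest. Mbp, the main myelin protein gene, was also highest in brain library 2, at 19.9, 119 and 32.1 CPM, and its difference from kidney did not pass (log2 fold change 1.77, SE 0.64, adjusted p = 0.102). Of the 6 tested genes of the oligodendrocyte list, 1 was higher in brain, Mobp, and 1 in kidney, Cnp. That list of 12 genes summed to 102, 239 and 126 CPM in brain and 173, 133 and 129 CPM in kidney.

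On the kidney side the genes with the largest fold changes included genes known from tubules. Slc34a1 had 0 counts in brain, which makes it at least 7213-fold higher in kidney (adjusted p 0.00656). Oxgr1, a receptor gene of the collecting duct for oxoglutarate, was at 65.5, 35.6 and 61.7 CPM in kidney, at least 2408-fold higher (adjusted p 0.000314). Pck1 and Fbp1, genes of glucose synthesis in the proximal tubule, reached 38.0, 6.26 and 43.6 CPM and 36.7, 7.82 and 43.8 CPM in kidney, without a count in brain. For Slc34a1, Pck1 and Fbp1, kidney library 2 was the lowest, and library 3 the highest.

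Among abundant genes the order was another one. Bsg, which encodes basigin, the partner of monocarboxylate transporters at the barrier, was at 16344, 13864 and 15234 CPM in brain and 389.7, 403 and 432 CPM in kidney (log2 fold change 5.21, SE 0.13, adjusted p = 1.6e-05). Itm2a, a membrane protein gene, was at 5989, 7346 and 6264 CPM in brain and 15.5, 24.6 and 18.4 CPM in kidney (log2 fold change 8.39, SE 0.26, adjusted p = 2.2e-05). Pltp, the phospholipid transfer protein gene, reached 6453, 6255 and 6225 CPM in brain and 271, 379 and 329 CPM in kidney (log2 fold change 4.27, SE 0.16, adjusted p = 4.33e-05). All 3 genes were high in every brain library. Plvap, the gene of the diaphragms that close fenestrae, led on the kidney side, followed by Umod, the gene of the urinary protein uromodulin made by the loop of Henle, at 2515, 2142 and 4538 CPM in kidney. Umod was at 0, 12.4 and 6.14 CPM in brain, with no count in library 1.

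Small amounts of the genes of one organ appeared in some libraries of the other. Umod, Slc12a1 and Aqp2 of kidney tubules were counted almost only in libraries 2 and 3 of brain, with Slc12a1, the salt transporter of the loop of Henle, at 0.0252, 2.75 and 8.39 CPM and Aqp2, the water channel of the collecting duct, at 0, 3.32 and 1.91 CPM. Conversely, Slco1c1 was at 0, 3.24 and 0 CPM, Foxf2 at 0, 0.264 and 0 CPM and Tbx1 at 0, 0.120 and 0 CPM in kidney, so that all their kidney counts lay in library 2. Per the labels, brain libraries 2 and 3 and kidney library 2 were sequenced on the same flow cell lane, lane 3. The part of the shared lane was not tested. Fitted with all 18 libraries and the lane as a term, 2590 genes passed. Umod, Aqp2, Slco1c1, Foxf2 and Tbx1 were still called in that fit, while Pdpn, named above, and Lef1, Foxq1, Ppard, Klf2, Sele, Cdkn1a, Cdkn2b, Cldn3, Reln, Aqp4, Akr1b7, Gfap and Snap25, named below, were not.

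**Figure D3:**
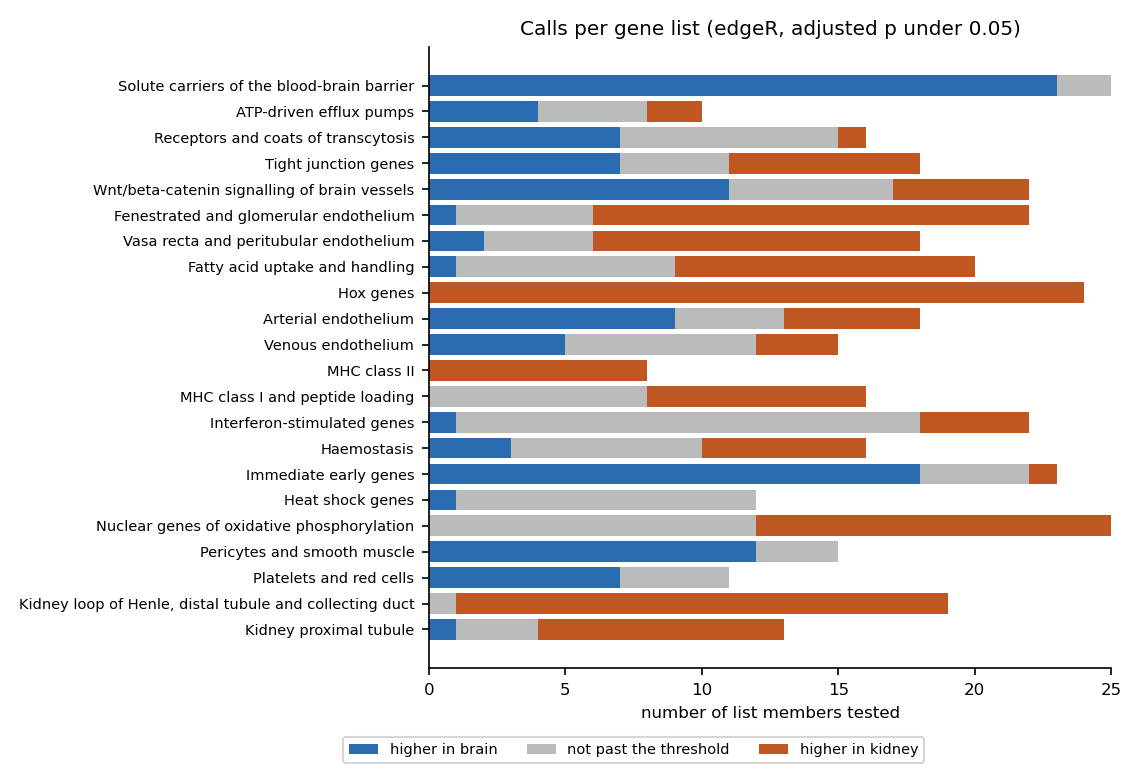
Number of tested members of 22 gene lists that were higher in brain (blue), higher in kidney (orange) or not past the threshold (grey) in edgeR. Solute carriers of the barrier, immediate early genes and pericyte genes are mostly blue, and Hox genes, MHC class II and tubule genes mostly orange.

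Transporters that carry nutrients across the blood-brain barrier were higher in brain almost throughout their list. Of the 25 genes on the list of solute carriers, all tested, 23 were higher in brain and 0 in kidney. Their median log2 fold change was 5.10 beside -0.04 over all genes tested. The list also holds a scaffold protein gene, Slc9a3r2, which is not itself a carrier. The list summed to 28255, 26953 and 29224 CPM in brain and 3247, 3321 and 2929.5 CPM in kidney, so the libraries of each organ lay close together. Slc2a1 (ENSMUSG00000028645, GRCm38 chr4:119108711-119137983), the glucose transporter GLUT1, was at 7808, 4898 and 4928 CPM in brain and 110.4, 98.3 and 109 CPM in kidney (log2 fold change 5.80, SE 0.25, adjusted p = 4.64e-05). Brain library 1 held the most, and even the lowest brain library lay far above kidney. Slc7a5, the large neutral amino acid transporter LAT1, was at 2161, 1654 and 2202 CPM in brain and 14.5, 10.9 and 12.1 CPM in kidney (log2 fold change 7.32, SE 0.22, adjusted p = 2.2e-05). Its partner chain gene Slc3a2 was at 1617, 1146 and 1249.8 CPM and 687, 447 and 405 CPM, a smaller difference (log2 fold change 1.38, SE 0.24, adjusted p = 0.00711) with no overlap. Slc16a1, the lactate and ketone body carrier MCT1, was at 1238, 1401 and 2222 CPM and 9.64, 11.6 and 15.3 CPM (log2 fold change 7.06, SE 0.35, adjusted p = 6.21e-05).

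Carriers of hormones, lipids and metals followed the same direction. Slco1c1, which carries thyroxine, was at 2015, 2459.8 and 2536 CPM in brain, and in kidney only library 2 had counts (log2 fold change 11.22, SE 1.77, adjusted p = 0.00482). Mfsd2a, which brings omega-3 lipids into the brain, was at 477, 469 and 430.1 CPM in brain and 2.09, 0.504 and 3.57 CPM in kidney (log2 fold change 7.79, SE 0.67, adjusted p = 0.000416). The organs did not overlap for any of these carriers. Slc40a1, the iron exporter ferroportin, was at 679, 1067 and 1188 CPM and 33.7, 25.3 and 26.7 CPM (log2 fold change 5.10, SE 0.27, adjusted p = 7.54e-05), and Slc30a1, a zinc exporter, at 398, 380.2 and 411 CPM and 28.8, 35.7 and 29.1 CPM (log2 fold change 3.67, SE 0.14, adjusted p = 4.33e-05). The 2 members that did not pass were Slc6a13, a GABA and taurine carrier, at 6.98, 2.33 and 4.91 CPM and 5.31, 1.06 and 3.19 CPM with overlapping libraries (adjusted p 0.643), and Slc9a3r2, a scaffold protein, at 2566, 1729 and 1971 CPM and 1486, 1478 and 1233 CPM (adjusted p 0.0562). The count ranged from 21 to 24 when 1 library was left out, and was 19 in the fit with sequencing lane.

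**Figure D4:**
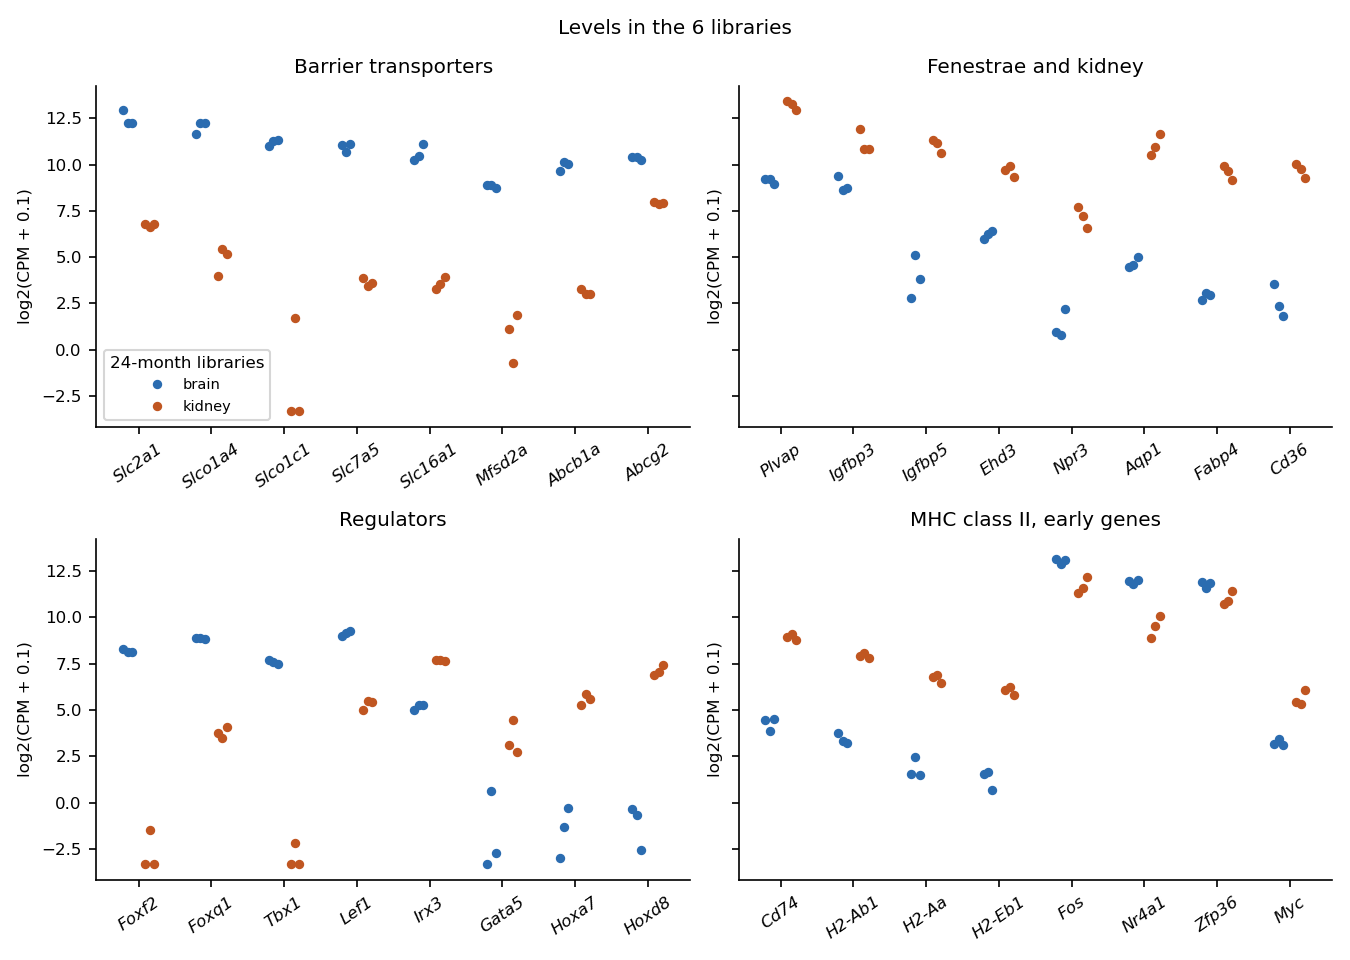
Level of 32 genes in each 24-month library, as log2(CPM + 0.1) on the vertical axis, in 4 panels by function. Blue points are the brain libraries and orange points the kidney libraries, each in the order 1 to 3; the points of the organs stay apart for every gene shown.

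ATP-driven efflux pumps, which return drugs and lipids to the blood, split between the organs. Of 10 pumps, 4 were higher in brain, 2 in kidney and 4 did not pass (median log2 fold change 0.01). Among all genes tested, 9.12% were higher in brain and 13.3% in kidney. Abcb1a, which encodes P-glycoprotein, was at 793, 1108 and 1035 CPM in brain and 9.61, 7.96 and 7.89 CPM in kidney (log2 fold change 6.85, SE 0.21, adjusted p = 2.2e-05), while its paralog Abcb1b was at 2.85, 4.39 and 4.97 CPM and 6.21, 9.35 and 6.10 CPM and did not pass (adjusted p 0.189). Abcg2, the breast cancer resistance protein gene, was at 1377, 1377 and 1208 CPM and 248, 237 and 240.0 CPM (log2 fold change 2.45, SE 0.12, adjusted p = 5.78e-05). Abcc4 and Abcc6 were the other pumps higher in brain. Abcc1 went the opposite way, at 19.3, 11.7 and 16.9 CPM in brain and 59.5, 38.0 and 62.7 CPM in kidney (log2 fold change -1.74, SE 0.28, adjusted p = 0.00498), as did Abcg1, a sterol exporter, at 7.76, 6.87 and 6.18 CPM and 27.2, 22.6 and 14.3 CPM (log2 fold change -1.62, SE 0.30, adjusted p = 0.00899).

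Receptors and coats of transcytosis, the vesicle route across the cell, gave 7 genes higher in brain and 1 in kidney of 16 (median 0.78). Tfrc, the transferrin receptor that brings in iron, was at 539, 789.7 and 869 CPM in brain and 22.4, 48.3 and 73.8 CPM in kidney (log2 fold change 3.93, SE 0.46, adjusted p = 0.00149), and Lrp8, a lipoprotein receptor, at 257, 212 and 242 CPM and 4.77, 1.99 and 0.549 CPM (log2 fold change 6.56, SE 0.74, adjusted p = 0.00124). The caveola genes differed too. Cav1, the coat protein gene of caveolae, was at 1106, 1231 and 1355 CPM in brain and 444, 572 and 387 CPM in kidney (log2 fold change 1.40, SE 0.18, adjusted p = 0.00194), and Cav2, Cavin1 and Cavin2 were likewise higher in brain. Cavin3 was higher in kidney, at 195, 134 and 144 CPM and 282, 336 and 248 CPM (log2 fold change -0.87, SE 0.19, adjusted p = 0.0174), a call lost without brain library 2, brain library 3 or kidney library 2. Insr and Lepr, receptors for insulin and leptin, did not pass (adjusted p 0.827 and 0.227).

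Tight junction genes did not move as a block: of 18, 7 were higher in brain, 7 in kidney and 4 did not pass (median 0.13). A mean under 1 CPM was found for 5 of the 18 in brain and 0 in kidney. Such genes passed the filter on low counts largely through kidney. Cldn5, the main claudin of brain endothelium, was at 2316, 2108 and 2239.8 CPM in brain and 103, 151 and 180.5 CPM in kidney (log2 fold change 3.94, SE 0.23, adjusted p = 9.88e-05). Ocln, the occludin gene, was at 796, 879 and 935 CPM and 61.0, 34.8 and 84.9953 CPM (log2 fold change 3.85, SE 0.34, adjusted p = 0.000443), and Lsr, a protein of junctions where 3 cells meet, at 385, 248 and 302 CPM and 16.6, 12.5 and 16.5 CPM (log2 fold change 4.35, SE 0.23, adjusted p = 7.54e-05). In all 3 genes every brain library exceeded every kidney library. The claudins of the list that were higher in kidney were Cldn1, Cldn3, Cldn10 and Cldn15; the call of Cldn3 was lost without brain library 2 or kidney library 3. Cldn15 was at 1.28, 2.19 and 5.64 CPM in brain and 375, 307 and 279 CPM in kidney, highest in library 1 (log2 fold change -6.69, SE 0.59, adjusted p = 0.000462), whereas Cldn10 was at 42.3, 53.6 and 83.0 CPM in kidney, highest in library 3, where tubule markers were highest as well. Tjp1, the scaffold ZO-1, was higher in brain, a call lost without brain library 2 or 3 or kidney library 2 or 3. Jam3, a junctional adhesion gene, was also higher in kidney (log2 fold change -2.41, SE 0.23, adjusted p = 0.000569), while its relative Jam2 was higher in brain (log2 fold change 0.86, SE 0.15, adjusted p = 0.00691).

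Wnt/beta-catenin signalling, which induces the barrier, showed 11 genes higher in brain, 5 in kidney and 6 not past the threshold of 22 (median 0.83). Its nuclear partners were among the former. Lef1 was at 506, 567 and 619 CPM in brain and 32.1, 45.2 and 43.4 CPM in kidney (log2 fold change 3.81, SE 0.19, adjusted p = 6.19e-05), and Tcf7 at 173, 207 and 240.1 CPM and 7.34, 7.96 and 8.70 CPM (log2 fold change 4.69, SE 0.19, adjusted p = 4.33e-05). Target genes that feed back on the pathway also separated the organs: Apcdd1 was at 581, 731 and 847 CPM and 4.43, 8.15 and 9.94 CPM (log2 fold change 6.59, SE 0.38, adjusted p = 8.98e-05), and Axin2 at 18.6, 23.5 and 29.6 CPM and 1.34, 2.23 and 2.17 CPM (log2 fold change 3.65, SE 0.34, adjusted p = 0.000563). Of the receptor complex for Wnt7 ligands, Adgra2 (GPR124) was at 224, 152 and 173 CPM and 17.8, 30.4 and 20.4 CPM (log2 fold change 3.00, SE 0.26, adjusted p = 0.000443), and Reck at 263, 397 and 404 CPM and 64.0, 75.9 and 60.1 CPM (log2 fold change 2.41, SE 0.21, adjusted p = 0.000418). The co-receptor genes Lrp5 and Lrp6 and the Norrin receptor gene Fzd4 did not pass (log2 -0.05, 0.32 and -0.35). Higher in kidney were Tspan12, the Norrin co-receptor, at 171, 218 and 177 CPM and 356, 343 and 358 CPM (log2 fold change -0.90, SE 0.13, adjusted p = 0.00363), the secreted inhibitors Dkk2 (log2 fold change -4.06, SE 0.52, adjusted p = 0.00199) and Sfrp1 (log2 fold change -7.98, SE 1.03, adjusted p = 0.00209), Rnf43, which removes Wnt receptors, and Tcf7l1. Sfrp1 was at 156, 194 and 323 CPM and Rnf43 at 2.67, 3.69 and 15.2 CPM in kidney, both highest in library 3. The call of Tcf7l1 was lost when any library other than brain library 3 was left out.

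Genes of fenestrated and glomerular endothelium were the counterpart in kidney. Of 22, 16 were higher in kidney, 1 in brain and 5 did not pass, with a median of -3.03. The list summed to 6522, 6002 and 5755 CPM in brain and 34842, 31007 and 23794 CPM in kidney, and unlike the tubule markers it was lowest in kidney library 3, at 0.723 times the mean of the other kidney libraries. Plvap (ENSMUSG00000034845, GRCm38 chr8:71497765-71511752) was at 589, 606 and 497 CPM in brain and 10857, 9914 and 7967 CPM in kidney (log2 fold change -4.09, SE 0.17, adjusted p = 4.38e-05). Ehd3, a membrane-trafficking gene of glomerular endothelium, was at 63.4, 77.0 and 83.8 CPM and 848, 964 and 641 CPM (log2 fold change -3.45, SE 0.21, adjusted p = 0.000102). Esm1, which encodes the proteoglycan endocan, was at 59.9, 75.8 and 54.0 CPM and 964, 905 and 701 CPM (log2 fold change -3.76, SE 0.20, adjusted p = 7.54e-05). The organs stayed apart in all 3.

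Binding proteins of insulin-like growth factor were called in both directions. Igfbp5 was at 6.90, 34.3 and 13.9 CPM in brain and 2555, 2307 and 1605 CPM in kidney (log2 fold change -6.88, SE 0.68, adjusted p = 0.000729), and Igfbp3 at 674, 395 and 428 CPM and 3950.3, 1843 and 1855 CPM (log2 fold change -2.35, SE 0.37, adjusted p = 0.00494). Their relative Igfbp7 was higher in brain, at 1859, 1481 and 1409 CPM and 412, 465 and 674 CPM (log2 fold change 1.61, SE 0.22, adjusted p = 0.00261). Emcn, the sialomucin endomucin, was at 582, 593 and 557 CPM and 1430.1, 1630.2 and 1214 CPM (log2 fold change -1.30, SE 0.14, adjusted p = 0.000968), and Plpp1 and Plpp3, which degrade lipid phosphates, were also higher in kidney (log2 -2.92 and -3.15, adjusted p 0.000104 and 0.000249). Sost, a secreted Wnt inhibitor, was low in brain, at 1.16, 2.03 and 0.857 CPM, and at 11.1, 51.8 and 24.9 CPM in kidney, highest in library 2 (log2 fold change -4.44, SE 0.67, adjusted p = 0.00408). Gata5, a transcription factor gene of glomerular endothelium, was also highest in kidney library 2, at 8.50, 21.5 and 6.63 CPM, but did not pass (log2 fold change -4.63, SE 1.57, adjusted p = 0.0842). Tbx3 was higher in brain, at 217, 181 and 250.3 CPM and 111, 115 and 71.7 CPM (log2 fold change 1.12, SE 0.22, adjusted p = 0.0114). Without kidney library 3 the list still had 16 genes higher in kidney and 1 higher in brain.

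Genes listed for the vasa recta and peritubular capillaries were mostly higher in kidney, 12 of 18 against 2 higher in brain (median -4.53). Among all genes tested, 13.3% were higher in kidney and 9.12% in brain. A mean under 1 CPM was found for 7 of the 18 in brain and 0 in kidney. Such genes passed the filter on low counts largely through kidney, so this tally describes the filtered genes. Several genes of the list are also tubule genes. Aqp1, a water channel of both the vasa recta and the proximal tubule, was at 22.4, 24.2 and 31.7 CPM in brain and 1458, 1947 and 3259 CPM in kidney (log2 fold change -6.41, SE 0.38, adjusted p = 0.000103), over 2-fold higher in library 3 than in library 1. Slc14a1, the urea transporter of descending vasa recta, was at 1.56, 0.214 and 1.95 CPM and 149.7, 183 and 252 CPM (log2 fold change -7.26, SE 0.70, adjusted p = 0.000627). Npr3, the clearance receptor for natriuretic peptides, ran against that order at 206, 147 and 97.0 CPM in kidney, with 1.86, 1.66 and 4.52 CPM in brain (log2 fold change -5.79, SE 0.52, adjusted p = 0.000501). Igf1 was at 0, 0.267 and 0.0536 CPM and 55.9, 82.5 and 66.7 CPM (log2 fold change -9.38, SE 0.73, adjusted p = 0.000275). The members higher in brain were Fxyd5, a sodium pump regulator (log2 fold change 1.37, SE 0.20, adjusted p = 0.00361), and the scaffold gene Ahnak (log2 fold change 1.03, SE 0.18, adjusted p = 0.0073). The list summed to 1.42 times as much in kidney library 3 as in the mean of the others.

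Of 20 genes of fatty acid uptake and handling, 11 were higher in kidney and 1 in brain (median -1.45). Among all genes tested, 13.3% were higher in kidney and 9.12% in brain. These are RNA levels, and uptake itself was not measured. A mean under 1 CPM was found for 4 of the 20 in brain and 1 in kidney. Fabp4, a fatty acid carrier of capillaries, was at 6.45, 8.16 and 7.57 CPM in brain and 963, 791 and 583 CPM in kidney (log2 fold change -6.72, SE 0.26, adjusted p = 4.33e-05). Cd36, the fatty acid translocase, was at 11.6, 5.13 and 3.39 CPM and 1028, 861 and 614 CPM (log2 fold change -6.96, SE 0.56, adjusted p = 0.000326). Gpihbp1, which holds lipoprotein lipase on the capillary wall, was at 18.6, 19.0 and 13.9 CPM and 352, 331 and 234 CPM (log2 fold change -4.16, SE 0.23, adjusted p = 8.17e-05), and the lipase gene Lpl at 9.47, 10.1 and 4.68 CPM and 162, 126 and 146 CPM (log2 fold change -4.16, SE 0.33, adjusted p = 0.000293). All were lowest in kidney library 3 or library 2, and above brain throughout. Pparg, the nuclear receptor that switches such genes on, was at 4.56, 4.63 and 9.11 CPM and 71.8, 69.5 and 33.5 CPM (log2 fold change -3.25, SE 0.43, adjusted p = 0.00228). Ppard was the exception, at 4.18, 4.97 and 4.34 CPM in brain and 0.830, 1.08 and 0.380 CPM in kidney (log2 fold change 2.56, SE 0.56, adjusted p = 0.017), a call lost without brain library 2, brain library 3 or kidney library 1. Without kidney library 3, 11 genes were again higher in kidney and 1 in brain.

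Transcription factor genes were called in both directions. Of 37 tested on a list of 38, 16 were higher in brain, 7 in kidney and 14 did not pass (median 0.42). Over all genes tested the shares were 9.12% higher in brain and 13.3% higher in kidney. Foxf2, a forkhead gene of brain vessels, was at 309, 279 and 281 CPM in brain and 0, 0.264 and 0 CPM in kidney (log2 fold change 12.04, SE 0.82, adjusted p = 0.000173). Foxq1, another forkhead gene, was at 474, 472 and 454 CPM and 13.2, 11.2 and 16.8 CPM (log2 fold change 5.08, SE 0.19, adjusted p = 4.33e-05). Tbx1, a T-box gene, was at 209, 190.0 and 181 CPM and 0, 0.120 and 0 CPM (log2 fold change 12.56, SE 0.65, adjusted p = 7.22e-05). These genes were close to absent from kidney apart from Foxq1. Irx3, a homeobox gene, was present in both organs, at 31.5, 38.4 and 38.7 CPM in brain and 206, 211 and 202 CPM in kidney, with little spread between kidney libraries (log2 fold change -2.51, SE 0.14, adjusted p = 7.54e-05). Pax8, a tubule gene, was at 42.5, 51.4 and 62.9 CPM in kidney, highest in library 3 with the tubule markers (log2 fold change -7.03, SE 1.26, adjusted p = 0.00798), and Meox1 was at 32.9, 17.8 and 18.6 CPM and 107, 119 and 92.4 CPM (log2 fold change -2.20, SE 0.27, adjusted p = 0.00185). The endothelial factor genes Fli1, Ets1, Sox17 and Sox18 did not pass (log2 0.12, 0.29, 0.42 and 0.24), whereas Klf2, Klf4, Gata2 and Epas1 of this list were higher in brain.

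Hox genes, which record position along the body axis, were counted almost only in kidney. Of 39 genes, 24 passed the filter on low counts, and all of those were higher in kidney; since the brain levels were near 0, only genes with enough kidney counts could pass the filter, so this count describes the filtered genes. The others had at most 3.42 CPM in any library, and 6 had no count in the 6 libraries. The median log2 fold change of the 24 was -8.35, or -7.41 with the 9 genes that had 0 counts in brain set at their bound against 3 counts. Hoxd8 was at 0.680, 0.535 and 0.0714 CPM in brain and 117, 135 and 171 CPM in kidney (log2 fold change -8.44, SE 0.64, adjusted p = 0.000249). Hoxa7 was at 0.0252, 0.294 and 0.714 CPM and 37.8, 59.2 and 48.1 CPM (log2 fold change -7.05, SE 0.80, adjusted p = 0.00128), and Hoxb5 at 0.0252, 0.0267 and 0.0179 CPM and 36.6, 42.7 and 37.1 CPM (3 counts over the 3 brain libraries, adjusted p = 2.2e-05). Each of the 4 clusters took part: 7 of 11 Hoxa genes, 8 of 10 Hoxb genes, 5 of 9 Hoxc genes and 4 of 9 Hoxd genes were called, with gene numbers from 2 to 10. No gene numbered 11 to 13, the end of each cluster used in the hindmost body, passed the filter. The sum of the list was 440.2, 519 and 602 CPM in kidney, 1.25 times as high in library 3 as in the mean of the others, and tubule cells, whose RNA these libraries hold, also express Hox genes.

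Of 25 genes shared by all endothelium, 9 were higher in brain, 3 in kidney and 13 did not pass (median 0.17), beside 9.12% and 13.3% of all genes tested. Among them Cd34, a surface sialomucin, was at 1259, 1141 and 1240.4 CPM in brain and 961, 962 and 829 CPM in kidney (log2 fold change 0.40, SE 0.12, adjusted p = 0.0479), and Tek, the angiopoietin receptor TIE2, at 969, 1479 and 1401 CPM and 1328, 1313 and 1013 CPM with no call (log2 fold change 0.07, SE 0.20, adjusted p = 0.851). The list was lowest in kidney library 3, at 0.772 times the mean of the other kidney libraries.

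Arterial and venous genes differed within each class. Of 18 arterial genes, 9 were higher in brain and 5 in kidney (median 0.64). Gkn3, an arterial gene of brain vessels, was at 82.9, 198 and 141 CPM in brain and 1.48, 6.31 and 7.13 CPM in kidney (log2 fold change 4.84, SE 0.67, adjusted p = 0.00274), and Bmx, a kinase gene, at 139.5, 193 and 149.8 CPM and 30.6, 34.8 and 36.0 CPM (log2 fold change 2.25, SE 0.17, adjusted p = 0.000252). Gja5 and Gja4, the connexins of arterial endothelium, went the opposite way: Gja5 was at 11.3, 9.01 and 9.06 CPM and 74.3, 119 and 117 CPM (log2 fold change -3.40, SE 0.24, adjusted p = 0.000192), and Gja4 at 70.3, 54.3 and 57.4 CPM and 176, 166 and 167 CPM (log2 fold change -1.48, SE 0.14, adjusted p = 0.000609). Of 15 venous genes, 5 were higher in brain and 3 in kidney (median 0.58), beside 9.12% and 13.3% of all genes tested. Vwf, the gene of von Willebrand factor, was at 1037, 1107 and 1299.9 CPM and 79.9, 75.8 and 73.1 CPM (log2 fold change 3.91, SE 0.14, adjusted p = 4.27e-05). Ackr1, a chemokine-binding receptor of venules, was at 64.0, 16.05 and 21.7 CPM and 0.842, 0.815 and 1.08 CPM (log2 fold change 5.22, SE 0.63, adjusted p = 0.00159), with brain library 1 highest. Ephb4, the venous ephrin receptor, was higher in kidney, at 261, 260.3 and 305 CPM and 944, 682 and 497 CPM (log2 fold change -1.36, SE 0.24, adjusted p = 0.0072). Of the 7 lymphatic genes, 6 were tested and Prox1, Pdpn and Reln were higher in kidney, Reln not when brain library 2 or 3 or kidney library 2 or 3 was left out. A mean under 1 CPM was found for 5 of the 6 in brain and 0 in kidney, so this tally describes genes that passed the filter largely through kidney. Prox1, the factor that sets lymphatic identity, was at 0, 0.0535 and 0 CPM in brain and 5.62, 5.61 and 4.01 CPM in kidney (2 counts over the 3 brain libraries, adjusted p = 0.00387).

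In the VEGF and angiopoietin list 7 of 20 genes were higher in kidney, beside 13.3% of all genes tested, and 2 in brain, near the 9.12% of all genes (median -0.42). Flt1, the receptor that traps VEGF, was at 3066, 3239.7 and 3062 CPM in brain and 1293, 823 and 632 CPM in kidney (log2 fold change 1.77, SE 0.26, adjusted p = 0.00354). Nrp1, a co-receptor, was at 494, 672 and 591 CPM and 1328, 1588 and 1103 CPM (log2 fold change -1.19, SE 0.18, adjusted p = 0.00422), and Aplnr, the apelin receptor, at 8.56, 9.90 and 4.54 CPM and 232, 167 and 128 CPM (log2 fold change -4.52, SE 0.38, adjusted p = 0.00039). The main receptor gene Kdr was higher in kidney (log2 fold change -0.94, SE 0.22, adjusted p = 0.0243), a call that was lost when any library other than kidney library 3 was left out. Of 19 Notch genes tested, 5 were higher in brain and 0 in kidney (median 0.05), among them the target gene Hey1, at 179, 219 and 163 CPM and 10.4, 29.8 and 23.5 CPM (log2 fold change 3.14, SE 0.39, adjusted p = 0.00185). Notch3 and Heyl, also among the 5, are known from pericytes, whose markers were higher in brain.

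In the TGF-beta and BMP list 8 of 26 tested genes were higher in brain and 4 in kidney (median 0.14). The kidney tally lay near the 13.3% of all genes tested, while 9.12% of all genes were higher in brain. Acvrl1, the endothelial receptor ALK1, was at 1456, 1081 and 1263 CPM in brain and 402, 428 and 356 CPM in kidney (log2 fold change 1.68, SE 0.15, adjusted p = 0.000501), and its target Id1 at 691, 587 and 522 CPM and 234, 234 and 209 CPM (log2 fold change 1.41, SE 0.14, adjusted p = 0.000779). Ltbp1 and Ltbp4, which bind latent TGF-beta in the matrix, were called in opposite directions (log2 -2.88 and 1.59). Of 27 matrix and matrix receptor genes, 4 were higher in brain and 7 in kidney (median -0.31), beside 9.12% and 13.3% of all genes tested. Fn1, the fibronectin gene, was at 1275, 1590.2 and 1619 CPM and 14.3, 47.6 and 26.3 CPM (log2 fold change 5.67, SE 0.48, adjusted p = 0.000409), far apart in every library. The common basement membrane collagens Col4a1 and Col4a2 did not pass (adjusted p 0.552 and 0.877), whereas Col4a3, of the collagen network known from the glomerulus, was at 4.58, 7.81 and 9.04 CPM and 41.3, 56.2 and 70.4 CPM (log2 fold change -2.97, SE 0.33, adjusted p = 0.00118), highest in kidney library 3. Col18a1, which releases endostatin, was at 137, 109.7 and 122 CPM and 409.7, 404 and 469 CPM (log2 fold change -1.80, SE 0.14, adjusted p = 0.000258).

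Genes of MHC class II, which shows peptides to helper T cells, were higher in kidney throughout: all 8 genes of the list passed in that direction, with a median of -4.71. Their sum was 46.1, 39.8 and 44.7 CPM in brain and 992, 1121 and 894 CPM in kidney. Cd74, the invariant chain gene, was at 22.01, 14.4 and 22.7 CPM in brain and 496, 546 and 439 CPM in kidney (log2 fold change -4.64, SE 0.23, adjusted p = 6.21e-05). H2-Ab1, a chain of the I-A molecule, was at 13.6, 9.79 and 9.34 CPM and 244, 269 and 220.1 CPM (log2 fold change -4.49, SE 0.21, adjusted p = 5.78e-05), and H2-Aa, its partner, at 2.80, 5.51 and 2.68 CPM and 109.5, 118 and 87.6 CPM (log2 fold change -4.85, SE 0.35, adjusted p = 0.000206). The kidney libraries lay close together and far above brain. H2-DMb1, part of the molecule that loads peptides, was at 0.630, 1.90 and 0.697 CPM and 41.4, 49.2 and 45.5 CPM (log2 fold change -5.41, SE 0.49, adjusted p = 0.000493). Ciita, the master activator of class II genes, was at 0.0252, 0.455 and 0 CPM and 5.84, 19.2 and 11.5 CPM (log2 fold change -6.30, SE 1.43, adjusted p = 0.0199), highest in kidney library 2. The calls of Ciita and of H2-Ob, an inhibitor of peptide loading, were lost without kidney library 2 and without kidney library 3, and that of H2-Ob also without brain library 1, brain library 2 or kidney library 1. The 14 leukocyte genes summed to 66.6, 50.6 and 57.4 CPM in brain and 19.6, 42.1 and 26.0 CPM in kidney; of the 8 tested, 1 was higher in brain and 0 in kidney, with a median of -0.76, and Ptprc lay towards kidney without passing. The B cell marker Cd79a was at 1.09, 1.58 and 1.90 CPM in kidney. The 13 genes of microglia and macrophages summed to 100.8, 94.8 and 88.4 CPM in brain and 162, 169 and 159 CPM in kidney. Of these 13, 12 were tested, and 1 was higher in brain and 2 in kidney. Both this tally and that of the leukocyte genes stand beside 9.12% higher in brain and 13.3% higher in kidney among all genes tested. Within kidney, library 2 held the most class II and the most leukocyte RNA, and the part of leukocyte RNA in the class II levels was not tested.

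The promoters of class II genes are known for a shared upstream module that ends in a Y box. The 250 bases before the start site are shown for 4 of the 8 genes, from RefSeq on GRCm38.p6, because all 4 hold this element at a similar place. Capitals mark each match to the letters GATTGG, searched on both strands, so that a match on the reverse strand appears as CCAATC. The sequences are H2-Aa (minus strand, chr17:34287824-34288073), H2-Eb1 (plus strand, chr17:34305617-34305866), H2-DMb1 (plus strand, chr17:34152941-34153190) and H2-Ob (plus strand, chr17:34238655-34238904), all 5′ to 3′.
H2-Aa: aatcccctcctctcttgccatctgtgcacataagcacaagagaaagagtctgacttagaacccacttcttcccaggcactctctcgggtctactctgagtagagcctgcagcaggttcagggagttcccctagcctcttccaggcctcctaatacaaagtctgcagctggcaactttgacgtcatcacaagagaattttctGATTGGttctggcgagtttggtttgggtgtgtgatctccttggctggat
H2-Eb1: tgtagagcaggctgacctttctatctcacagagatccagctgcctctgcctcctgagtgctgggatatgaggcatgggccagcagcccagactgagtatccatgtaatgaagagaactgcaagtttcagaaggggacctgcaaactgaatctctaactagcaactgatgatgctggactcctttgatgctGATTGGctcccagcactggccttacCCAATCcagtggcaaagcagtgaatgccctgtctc
H2-DMb1: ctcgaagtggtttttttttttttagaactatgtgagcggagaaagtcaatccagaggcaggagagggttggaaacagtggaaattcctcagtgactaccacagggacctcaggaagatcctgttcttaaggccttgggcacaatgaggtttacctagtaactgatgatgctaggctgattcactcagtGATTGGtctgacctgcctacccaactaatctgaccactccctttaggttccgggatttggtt
H2-Ob: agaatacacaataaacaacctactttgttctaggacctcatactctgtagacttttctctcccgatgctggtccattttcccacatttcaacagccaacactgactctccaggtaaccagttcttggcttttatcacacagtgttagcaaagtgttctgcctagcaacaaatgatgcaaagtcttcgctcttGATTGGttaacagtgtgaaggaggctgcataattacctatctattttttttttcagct

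Of the 8 class II genes, 5 have a promoter entry, and all 5 hold a Y box match in at least 1 entry. Among all 27025 genes with an entry 16.6% do, as do 17.95% of the genes higher in kidney and 21.5% of those tested. In H2-Aa the match starts 49 bases before the start site, in H2-DMb1 62 and in H2-Ob 58, and in H2-Eb1 the first of its 2 matches starts 60 bases before it. In H2-DMa, which has 2 entries, 1 held a match, 199 bases before its start. A match is a description of the letters and not a measured binding site.

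MHC class I and the genes that load it were higher in kidney to a smaller degree, 8 of 16 with 0 higher in brain (median -0.59). H2-K1 and H2-D1, the classical class I genes, were at 879, 835 and 849 and 2111, 1785 and 1908 CPM in brain and at 1411, 1352 and 1276 and 3133, 3372 and 2978 CPM in kidney (log2 -0.66, adjusted p 0.00474; log2 -0.71, adjusted p 0.00537). Psmb8, a subunit of the immunoproteasome, was at 56.0, 51.6 and 45.5 CPM and 92.3, 99.6 and 78.5 CPM (log2 fold change -0.82, SE 0.15, adjusted p = 0.00913). The light chain gene B2m did not pass (log2 fold change -0.38, SE 0.13, adjusted p = 0.0739). Nor did most of the interferon-stimulated genes: of 22, 1 was higher in brain and 4 in kidney (median 0.09), beside 9.12% and 13.3% of all genes tested. Rsad2, which encodes the antiviral protein viperin and is also on the vasa recta list, was at 109, 85.4 and 116 CPM and 899, 1007 and 779.7 CPM (log2 fold change -3.11, SE 0.18, adjusted p = 8.92e-05), and Ifit2 at 39.8, 47.3 and 33.0 CPM and 167, 134 and 110.3 CPM (log2 fold change -1.78, SE 0.21, adjusted p = 0.00156), while Gbp3 was higher in brain, at 233, 314 and 263 CPM and 128, 119.8 and 77.7 CPM (log2 fold change 1.32, SE 0.22, adjusted p = 0.00626). Scaled by library totals alone, 12 class I genes were higher in kidney, and the median of the interferon list became -0.11. The interferon list had 2 genes higher in kidney without any 1 of brain library 2, brain library 3, kidney library 1 or kidney library 2.

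Immediate early genes, which cells switch on within minutes of a stimulus and which tissue digestion also induces, were higher in brain. Of 23, 18 were higher in brain, 1 in kidney and 4 did not pass, with a median of 1.20. Fos (ENSMUSG00000021250, GRCm38 chr12:85473890-85477273) was at 9101, 7466 and 8881 CPM in brain and 2524, 3104 and 4647 CPM in kidney (log2 fold change 1.31, SE 0.23, adjusted p = 0.00771). Nr4a1, an orphan nuclear receptor gene, was at 3935, 3628 and 4093 CPM and 479, 749.5 and 1093 CPM (log2 fold change 2.33, SE 0.29, adjusted p = 0.0019), and Ccn1, a matricellular gene, at 4118, 3622 and 4272 CPM and 392, 719 and 955 CPM (log2 fold change 2.54, SE 0.32, adjusted p = 0.00187). The brain libraries were alike in these genes, and kidney library 3 was the highest of its organ. Ier3 was at 2033, 1787 and 1917 CPM and 372, 491 and 638 CPM (log2 fold change 1.93, SE 0.21, adjusted p = 0.001). Myc was the member higher in kidney, at 8.92, 10.5 and 8.63 CPM and 42.5, 39.8 and 67.2 CPM (log2 fold change -2.41, SE 0.26, adjusted p = 0.00098). Jund, Atf3, Socs3 and Ccn2 did not pass (adjusted p 0.616, 0.11, 0.226 and 0.984). The list summed to 66198, 57508 and 66133 CPM in brain and 21423, 25396 and 35375 CPM in kidney. Its count higher in brain was 12 without kidney library 2, which among others took the calls of Egr1 and Klf2, 18 without kidney library 3 and 15 with scaling by library totals alone. Klf2, a factor induced by blood flow, was at 3125, 1962 and 1874 CPM and 1362, 999 and 1146 CPM (log2 fold change 0.99, SE 0.23, adjusted p = 0.0224), a call also lost without kidney library 3.

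A pair of immediate early promoters hold the cAMP response element TGACGTCA, marked in capitals in the 250 bases before the start site. They are shown because this element is a textbook route of early gene induction, and both genes were higher in brain. The sequences are those of Btg2, an anti-proliferation gene (minus strand, chr1:134079156-134079405), and Dusp1, a phosphatase of MAP kinases (minus strand, chr17:26508473-26508722), from RefSeq on GRCm38.p6.
Btg2: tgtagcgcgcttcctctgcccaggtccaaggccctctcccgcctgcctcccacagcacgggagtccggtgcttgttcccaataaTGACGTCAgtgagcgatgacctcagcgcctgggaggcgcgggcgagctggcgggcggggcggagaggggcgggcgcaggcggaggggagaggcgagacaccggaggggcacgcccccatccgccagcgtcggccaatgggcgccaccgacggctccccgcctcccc
Dusp1: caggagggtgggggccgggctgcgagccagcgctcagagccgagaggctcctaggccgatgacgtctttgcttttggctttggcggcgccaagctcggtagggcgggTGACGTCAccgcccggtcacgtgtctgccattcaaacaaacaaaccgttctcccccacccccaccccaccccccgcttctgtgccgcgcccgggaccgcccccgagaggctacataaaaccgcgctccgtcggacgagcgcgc

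The element starts 166 bases before the start of Btg2 and 143 bases before that of Dusp1. It occurs in 2 of 18 genes of the list with an entry and in 1.77% of all genes with one, 2.94% of those tested and 3.45% of those higher in brain, on either strand. The serum response element known as the CArG box was found in 2 of the 18 as well, Egr2 and Zfp36, and in 1.62% of all genes, 1.503% of those tested and 2.05% of those higher in brain. Btg2 was at 2325, 2143 and 2420.0 CPM in brain and 888, 1146 and 1589 CPM in kidney (log2 fold change 0.93, SE 0.21, adjusted p = 0.0213), and Dusp1 at 6515, 5929 and 5728 CPM and 1993, 2704 and 3229 CPM (log2 fold change 1.20, SE 0.19, adjusted p = 0.00448). The organs did not overlap for Dusp1, nor for Btg2. No match says only that these letters are not in this window.

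Of 12 heat shock genes, 1 was higher in brain and 0 in kidney (median 0.14), a share near the 9.12% of all genes tested that were higher in brain: Hspb1, a small heat shock protein gene, was at 310.2, 206 and 226 CPM and 98.5, 91.7 and 91.1 CPM (log2 fold change 1.40, SE 0.18, adjusted p = 0.00198), while Hspa1a and Hspa1b, which digestion also induces, overlapped between organs (adjusted p 0.804 and 0.727). Of 13 genes under glucocorticoid control or metabolism, 3 were higher in each organ (median 0.20), beside 9.12% and 13.3% of all genes tested. Hsd11b2, the enzyme that inactivates glucocorticoids in the collecting duct, was at 0.0252, 0.107 and 0.750 CPM and 101.3, 188 and 220.2 CPM (log2 fold change -8.996, SE 0.86, adjusted p = 0.000628). Tsc22d3, a glucocorticoid-induced gene, was higher in brain, at 1763, 1026 and 1050.3 CPM and 419, 378 and 368 CPM (log2 fold change 1.72, SE 0.23, adjusted p = 0.00256).

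Genes of clotting and of leukocyte traffic separated member by member. On the haemostasis list, 3 of 16 tested genes were higher in brain and 6 in kidney (median -0.74). The shares among all genes tested were 9.12% and 13.3%. F2r, the thrombin receptor PAR1, was at 20.8, 33.7 and 37.1 CPM in brain and 1437, 899 and 777 CPM in kidney (log2 fold change -5.09, SE 0.36, adjusted p = 0.000182). F8, the gene of coagulation factor VIII, was at 0.327, 6.45 and 3.09 CPM and 102, 113 and 69.4 CPM (log2 fold change -4.86, SE 0.89, adjusted p = 0.0086). Nos3, the endothelial nitric oxide synthase, was at 582, 526 and 593 CPM and 322, 222 and 217 CPM (log2 fold change 1.16, SE 0.18, adjusted p = 0.00461), higher in brain together with Vwf and Ptgis. Of 16 adhesion and chemokine genes tested, 4 were higher in each organ (median -0.05), beside 9.12% and 13.3% of all genes tested. Cxcl12, a chemokine of vessels, was at 2127, 2835 and 3123 CPM and 113, 84.7 and 65.6 CPM (log2 fold change 4.94, SE 0.28, adjusted p = 8.18e-05), and Cxcl1, a chemokine for neutrophils, at 214, 193 and 149 CPM and 15.3, 21.6 and 26.8 CPM (log2 fold change 3.13, SE 0.26, adjusted p = 0.000357). Sele, the E-selectin gene, was higher in kidney, at 19.9, 21.1 and 14.9 CPM and 53.0, 47.3 and 52.9 CPM (log2 fold change -1.46, SE 0.19, adjusted p = 0.00202).

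Of 25 nuclear genes of oxidative phosphorylation, 13 were higher in kidney and 0 in brain (median -0.57). Atp5b, a subunit of ATP synthase, was at 927, 845 and 833 CPM in brain and 1485, 1432 and 1909 CPM in kidney (log2 fold change -0.89, SE 0.15, adjusted p = 0.00548), and Cyc1, cytochrome c1, at 103, 108 and 93.4 CPM and 196, 193 and 256 CPM (log2 fold change -1.08, SE 0.15, adjusted p = 0.00312). Kidney library 3 was highest in both, and the list sum there was 1.32 times the mean of the other kidney libraries. The count was 9 without kidney library 2 or 3, 6 without brain library 2, 7 without brain library 3, and 19 when scaled by library totals alone. None of the 7 tested transcripts of the mitochondrial genome passed in edgeR (5 at an unadjusted p under 0.05), while DESeq2 called 5 of 11, all higher in kidney. In glycolysis and hypoxia response, 7 of 22 genes were higher in brain and 6 in kidney (median -0.05). The shares among all genes tested were 9.12% and 13.3%. Adm, the gene of the vasodilator adrenomedullin, was at 281, 291 and 349 CPM and 26.9, 41.7 and 45.0 CPM (log2 fold change 3.02, SE 0.23, adjusted p = 0.000255), Epas1, the HIF-2 alpha gene, at 1431, 1310.2 and 1466 CPM and 648, 690 and 549.8 CPM (log2 fold change 1.16, SE 0.13, adjusted p = 0.00118), and Egln3, an oxygen sensor, at 0.0504, 0.0267 and 0.0714 CPM and 32.8, 42.4 and 50.0010 CPM (log2 fold change -9.58, SE 0.39, adjusted p = 4.33e-05).

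Enzymes that handle drugs and transmitters gave 10 genes higher in brain and 4 in kidney of 23 tested (median 0.24). Ddc, which makes dopamine and serotonin, was at 187, 200.3 and 193 CPM in brain and 1.54, 0.744 and 2.07 CPM in kidney (log2 fold change 7.04, SE 0.38, adjusted p = 7.54e-05), and Maoa, which degrades them, at 384, 476 and 564 CPM and 26.1, 40.7 and 25.5 CPM (log2 fold change 3.95, SE 0.26, adjusted p = 0.000148). The brain libraries of both stood well above kidney. Cyp4b1, a cytochrome P450, was at 9.80, 15.5 and 14.1 CPM and 733, 841 and 749.9 CPM (log2 fold change -5.88, SE 0.23, adjusted p = 4.33e-05). Among 11 tested genes of senescence and ageing, 4 were higher in brain and 1 in kidney (median 0.15). Over all genes tested, 9.12% were higher in brain and 13.3% in kidney. Cdkn1a, the cell cycle inhibitor p21, was at 2154, 934 and 1304 CPM and 453, 385 and 654 CPM (log2 fold change 1.56, SE 0.34, adjusted p = 0.0177), a call lost without kidney library 1 or 2. Cdkn2b, the inhibitor p15, was at 50.5, 36.4 and 38.7 CPM and 5.78, 9.31 and 10.7 CPM (log2 fold change 2.29, SE 0.29, adjusted p = 0.00186), and Gdf15, a stress cytokine higher in kidney, at 5.89, 2.67 and 1.68 CPM and 52.1, 78.3 and 100.8 CPM (log2 fold change -4.50, SE 0.53, adjusted p = 0.00153). Of 12 tested cell cycle genes none passed in edgeR (2 at an unadjusted p under 0.05), and DESeq2 called 2 of 15.

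Some related genes were divided between the organs. Families are named here because members were called in opposite directions, so they do not show how often this occurs. Among the 12 families examined, the fatty acid binding proteins were called in kidney only (Fabp3, Fabp4 and Fabp5). Of 21 tested ion channels and pumps, 6 were higher in each organ (median -0.11). In the glucose transporters, Slc2a4 (GLUT4) was at 8.14, 8.93 and 9.16 CPM and 39.9, 34.8 and 73.3 CPM (log2 fold change -2.50, SE 0.32, adjusted p = 0.00197), opposite to Slc2a1. Among the aquaporins, Aqp11 was at 121, 127 and 126 CPM and 11.8, 15.5 and 14.6 CPM (log2 fold change 3.16, SE 0.16, adjusted p = 6.34e-05), and Aqp1, Aqp2, Aqp3, Aqp4 and Aqp7 were higher in kidney, where the call of Aqp4 was lost without any 1 kidney library and in DESeq2, and that of Aqp7 without kidney library 1 or 2. Slco1a4, an organic anion transporter of the barrier, was at 3249, 4797 and 4863 CPM and 15.8, 43.4 and 36.5 CPM (log2 fold change 7.08, SE 0.48, adjusted p = 0.000159), and Slco2a1, which takes up prostaglandins, at 28.8, 34.8 and 19.4 CPM and 254, 335 and 248.992 CPM (log2 fold change -3.34, SE 0.26, adjusted p = 0.000288). Gjc1, a connexin, was higher in brain (log2 fold change 1.44, SE 0.16, adjusted p = 0.00112), and Foxc2 was higher in kidney (log2 fold change -2.31, SE 0.55, adjusted p = 0.024) while Foxc1 was higher in brain (log2 fold change 3.31, SE 0.34, adjusted p = 0.000894). The call of Foxc2 was lost without brain library 2 and without any of the kidney libraries.

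Markers of other cell types were called in both directions. Of 12 astrocyte genes, 2 were higher in brain and 5 in kidney, beside 9.12% and 13.3% of all genes tested. Gfap was at 9.87, 6.61 and 3.501 CPM in brain, a call lost when any library other than kidney library 3 was left out. Aldh1l1 was at 0.0504, 0.0267 and 0.107 CPM in brain and 158, 106 and 232 CPM in kidney (log2 fold change -11.22, SE 0.53, adjusted p = 5.78e-05). Of 8 neuron genes tested 2 were higher in each organ, Stmn2 and Snap25 in brain and Nefl and Nefm in kidney (median -1.91). Of these, Snap25 was at 1.03, 2.17 and 2.30 CPM in brain with 0 counts in kidney. Pericyte and smooth muscle genes were higher in brain in 12 of 15, and 0 were higher in kidney (median 2.35). Vtn, vitronectin, was at 322, 263 and 342 CPM in brain and 0.403, 0.192 and 2.55 CPM in kidney (log2 fold change 8.23, SE 0.92, adjusted p = 0.0012), and Acta2, the smooth muscle actin gene, at 451, 386 and 312 CPM and 37.9, 43.4 and 80.1 CPM (log2 fold change 2.83, SE 0.32, adjusted p = 0.0013). Of 11 platelet and red cell genes 7 were higher in brain (median 4.31), led by Hbb-bs, a haemoglobin chain, at 528, 267 and 178 CPM and 8.16, 12.8 and 10.2 CPM (log2 fold change 4.97, SE 0.47, adjusted p = 0.000584). Of the 11, 4 had a mean under 1 CPM in kidney and 0 in brain, so those passed the filter on low counts largely through brain. On the kidney side 18 of 19 genes from the loop of Henle to the collecting duct were higher in kidney (median -9.28), and 9 of 13 tested proximal tubule genes, with Gatm, an enzyme of creatine synthesis, higher in brain at 907, 856 and 803 CPM and 76.1, 14.6 and 75.9 CPM (log2 fold change 3.94, SE 0.61, adjusted p = 0.00445). A mean under 1 CPM in brain was found for 14 of the 19 and 9 of the 13, and for 0 of either list in kidney. Such genes passed the filter on low counts largely through kidney, so these tallies describe the filtered genes. Of 8 tested genes of podocytes, mesangium and the renin-producing cells, 5 were higher in kidney, Synpo, Ren1, Akr1b7, Gata3 and Serpine2, and 1 in brain, Pdgfrb (median -2.80). The call of Gata3 was lost when any library other than brain library 2 was left out, and that of Ren1 without brain library 2 or any 1 kidney library. The 12 genes of that list summed to 1641, 1704 and 2007 CPM in brain and 2960.1, 2717 and 2099 CPM in kidney. Podxl, its most abundant tested member, did not pass, and Pdgfrb is also on the pericyte list, so the sum does not measure these kidney cells alone. The podocyte gene Nphs1 had at most 0.0211 CPM in any library, and Ren1, the renin gene, was at 18.5, 17.5 and 58.9 CPM in kidney.

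The same organs were compared at 3 months, with no library in common, to see where age changed the difference. In a fit of the 12 brain and kidney libraries, 3711 of 17424 genes (21.3%) differed between the organs at 24 months and 4074 (23.4%) at 3 months. Of these, 2883 were called at both ages in the same direction, 77.7% of the 24-month and 70.8% of the 3-month calls, and 2 in opposite directions. Across the 13982 genes of at least 1 CPM, which are not independent replicates, the organ differences of the ages had a correlation of 0.857. Across all 17424 genes tested it was 0.742. The change itself, tested as the interaction of organ and age, passed for 12 genes (0.0689%), 6 moving towards brain and 6 towards kidney. DESeq2, fitted without the edgeR filter on 24315 genes, called 261, among them all 12. With the replicate number within age as a block 0 genes passed in edgeR (956 at an unadjusted p under 0.05).

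**Figure D5:**
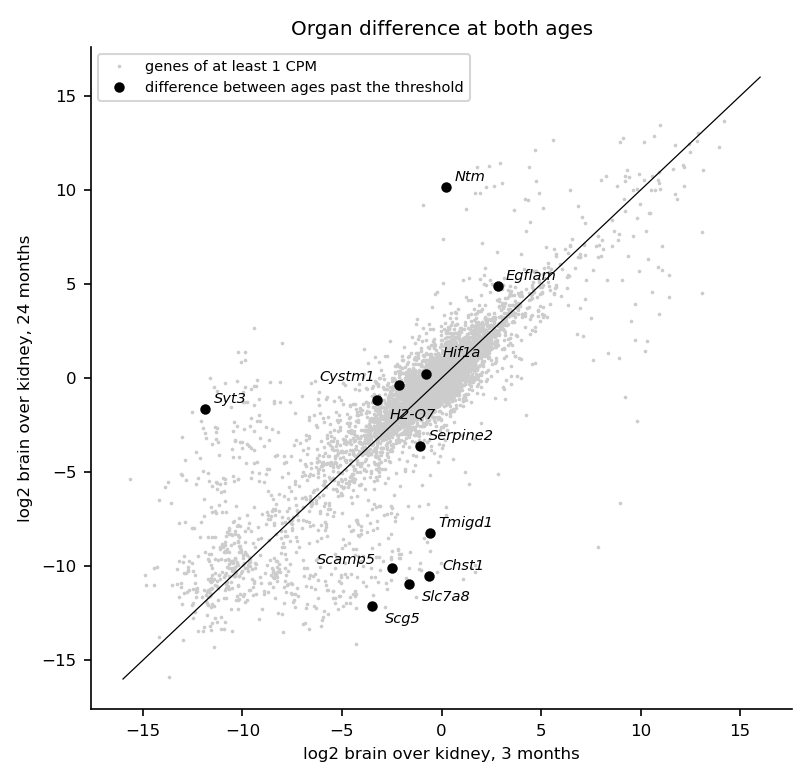
Log2 fold change, brain over kidney, at 3 months (horizontal axis) and at 24 months (vertical axis) for genes of at least 1 CPM in the fit of 12 libraries, with the diagonal of equal values. Black points are the 12 genes whose organ difference changed between the ages; H2-Q7, Hif1a and Cystm1 lie nearer the diagonal than genes with 0 or few counts in a group, such as Syt3.

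H2-Q7, a class I-like gene that presents peptides, was the clearest. It was at 7.62, 9.86 and 9.24 CPM in brain at 3 months and 62.6, 57.6 and 52.6 CPM at 24 months, and at 76.7, 93.9 and 81.1 CPM and 128, 125 and 130.1 CPM in kidney. Both organs had more at 24 months, brain by more, so that the organ difference moved from -3.23 to -1.15 (log2 difference 2.09, SE 0.19, adjusted p = 0.0031). H2-Q6 is nearly identical in sequence, and reads shared by the pair leave the level of each uncertain. Serpine2, the protease inhibitor nexin-1, moved the opposite way. It was at 134, 98.9 and 103 CPM and 42.9, 58.9 and 51.0 CPM in brain, and at 287, 199 and 223 CPM and 738, 613 and 536 CPM in kidney (log2 difference -2.55, SE 0.27, adjusted p = 0.00639). Its brain libraries of 24 months lay below, and its kidney libraries above, those of 3 months.

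Hif1a, the oxygen-sensing factor HIF-1 alpha, was at 207, 179 and 209 CPM and 359, 328 and 364 CPM in brain, and at 356, 335 and 342 CPM and 284, 289 and 319 CPM in kidney (log2 difference 1.03, SE 0.14, adjusted p = 0.0424). It was higher in kidney at 3 months and did not pass between the organs at 24 months. Egflam, which encodes the matrix protein pikachurin, was at 54.7, 80.4 and 72.3 CPM and 61.6, 59.9 and 68.8 CPM in brain, and at 7.65, 11.1 and 10.8 CPM and 2.04, 1.70 and 2.68 CPM in kidney (log2 difference 2.08, SE 0.31, adjusted p = 0.0494). Here the brain levels of the ages overlapped and the kidney levels did not. Slc7a8, the amino acid transporter LAT2, was at 14.3, 15.5 and 6.502 CPM in brain at 3 months and had 2 counts over the 3 brain libraries at 24 months, beside 26.3, 54.6 and 31.98 CPM and 31.0, 20.3 and 53.5 CPM in kidney. Leaving out 1 library in turn, H2-Q7, Serpine2 and Slc7a8 kept the call in all 12 fits, while Hif1a lost it in all but that without brain library 3 of 3 months. Without brain library 2 or without kidney library 1 of 24 months 5 of the 12 calls were left, and Egflam and Hif1a were not among them.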

How the data were processed

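The authors deposited whole-number read counts per gene in 1 table per organ, with a column for each sequencing run. Per the labels, cDNA came from SmartSeq V4 chemistry and libraries from Ovation random priming. Per the submitters' processing notes, reads were aligned with TopHat2 to GRCm38 (mm10) and counted with HTSeq; versions, annotation release and strand setting are not given in the sources used here, so overlapping and antisense genes cannot be separated. Labels disagree on which kidney library was run again: the run title names another library than its description and column name, which were followed. The counts of the 2 runs of kidney library 1 differed by about sampling noise (chi-square per degree of freedom 1.07, against 61.2 or more between different libraries) and were summed and counted as 1 sample.

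Of 46078 genes, 45229 (98.2%) received a symbol from GENCODE M21, and the 5 summary lines of each table, which name no gene, were left out. The 6 libraries of 24 months were fitted in edgeR 4.0.16 (R 4.3.3) with TMM factors, filterByExpr at a minimum count of 10 and the quasi-likelihood F test, and a gene was called at a Benjamini-Hochberg adjusted p of 0.05; the SE is the fold change divided by the square root of F. The change between ages was the interaction term of a fit of 12 libraries. DESeq2 1.42.0 was an alternative, beside other scaling factors, no filter, marker genes left out, each library left out, a replicate block, all 18 libraries, sequencing lane, single runs of kidney library 1 and a test against a 2-fold change. The code was tested on simulated counts. Total counts per library set a floor of 3 counts, and PCR reads are not independent molecules, so floors cover counting error only.

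Libraries were grouped by the organ and age labels. The comparison and the 46 gene lists were chosen with earlier results of these data known. Genes were named by these rules: the 10 largest changes per direction among called genes that did not overlap and had a mean of at least 1 CPM, leaving out predicted genes, pseudogenes, immunoglobulin segments and ribosomal proteins; the 10 most abundant per direction over 4-fold; up to 8 per list by abundance and those called against the list's direction; the genes of the sort; 5 per direction for the change between ages; and family members called in opposite directions. From these the text takes a part, and other list members it names were chosen after their values were seen. Heart libraries were not analysed here apart from the fits of 18 libraries. Promoters are the 250 bases before each RefSeq start site on GRCm38.p6.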

Additional observations from a re-analysis of the deposited data

Results flagged for a closer look

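The brain over kidney difference at 24 months differed from that at 3 months for 12 genes, by the interaction test of edgeR across 17424 genes. Towards brain moved H2-Q7 by 2.09 on the log2 scale (adjusted p = 0.0031), Hif1a by 1.03 (adjusted p = 0.0424), Cystm1 by 1.79 (adjusted p = 0.0424), Egflam by 2.08 (adjusted p = 0.0494), Syt3 by 10.24 (adjusted p = 0.0031) and Ntm by 9.91 (adjusted p = 0.0177). Towards kidney moved Serpine2 with a difference of -2.55 (adjusted p = 0.00639), Slc7a8 with -9.31 (adjusted p = 0.00593), Scg5 with -8.63 (adjusted p = 0.00705), Tmigd1 with -7.67 (adjusted p = 0.0424), Chst1 with -9.90 (adjusted p = 0.0424) and Scamp5 with -7.58 (adjusted p = 0.0465).

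For Syt3, Ntm, Slc7a8, Scg5, Tmigd1, Chst1 and Scamp5, 1 group had 0 to 2 counts over its 3 libraries, so that the size of the fitted difference depends on the prior count of the fit. Syt3, a synaptotagmin gene, had no count in brain at 3 months and was at 3.94, 2.00 and 2.91 CPM in brain at 24 months, beside 8.32, 11.4 and 10.6 CPM and 7.85, 9.70 and 9.95 CPM in kidney. Scg5, a secretory granule gene, was at 1.25, 0.975 and 0.971 CPM in brain at 3 months and had no count there at 24 months, with 15.6, 9.35 and 10.8 CPM and 11.7, 8.39 and 15.8 CPM in kidney. Ntm, which encodes neurotrimin, was at 4.46, 4.61 and 2.18 CPM and 4.19, 3.09 and 1.79 CPM in brain, and at 4.28, 2.20 and 3.14 CPM and 0, 0 and 0 CPM in kidney. Chst1, a sulfotransferase gene, was at 1.04, 2.47 and 1.70 CPM and 0, 0 and 0 CPM in brain, and at 1.60, 4.48 and 1.89 CPM and 3.34, 6.01 and 2.46 CPM in kidney. Among H2-Q7, Serpine2, Scg5, Slc7a8, Syt3, Ntm, Hif1a, Cystm1, Chst1 and Tmigd1, the first 5 kept their call whichever 1 of the 12 libraries was left out, and the last 5 did not. Egflam and Scamp5 were not called without brain library 2 or without kidney library 1 of 24 months. No gene passed with the replicate number within age as a block.

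Cystm1, a small membrane protein gene, was at 40.9, 47.7 and 45.0 CPM and 127, 93.5 and 99.2 CPM in brain, and at 214, 216 and 159 CPM and 126, 116 and 166 CPM in kidney. The brain libraries of 24 months all lay above those of 3 months, and the kidney libraries of the ages overlapped.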

How the results depend on the processing

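The 3543 genes that differed between the organs numbered 1891 when tested against a 2-fold change, 577 higher in brain and 1314 in kidney, and from 2660 (without kidney library 2) to 3229 when 1 library was left out. Scaled by library totals alone 28.5% of the calls were higher in brain, against 40.8% with TMM factors. With the replicate number as a block 2423 genes passed, and 34 of 406 named genes lost and 5 gained a call. Same-numbered brain and kidney libraries showed correlations of deviations of 0.017, 0.00715 and -0.00101, and brain library 2 correlated most with kidney library 3 (0.0176). Values so near 0 over all genes cannot decide whether equal numbers pair the samples. The number was left out of the main fit because the labels do not say what it shares. DESeq2, fitted without the edgeR filter on 22679 genes against 15831 in edgeR, called 5038. The 12 genes whose organ difference changed with age numbered 261 in DESeq2, 0 with a replicate block within age (956 at an unadjusted p under 0.05), and 5 to 19 when 1 library was left out: 5 without brain library 2 or kidney library 1 of 24 months, 6 without kidney library 3 and 19 without brain library 3 of 3 months. The cause of these changes was not tested. No named fold change turned its direction while called. At this depth, levels under 3 counts in a single library could not be told from absence. The fold bounds for genes with 0 counts in an organ were set against 3 counts over its 3 libraries together.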

Other observations

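Library 1 stood apart in both organs for some glucocorticoid-responsive and acute phase genes, whose difference between the organs did not pass the threshold. Fkbp5, a chaperone gene induced by glucocorticoids, was at 128, 27.9 and 15.9 CPM in brain and 479.7, 133 and 109 CPM in kidney (log2 fold change -2.07, SE 0.91, adjusted p = 0.17). Lrg1, an acute phase gene of vessels, was at 324, 51.0 and 71.1 CPM and 148, 41.0 and 42.0 CPM (log2 fold change 0.95, SE 0.82, adjusted p = 0.499), and Zbtb16, a zinc finger gene, at 67.1, 15.5 and 9.09 CPM and 60.0, 8.80 and 5.85 CPM (log2 fold change 0.29, SE 1.06, adjusted p = 0.894). In each gene library 1 was the highest of its organ; the labels do not say whether libraries of the same number share an animal or a day.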
